A study of Homo sapiens with 5 samples.

Results

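Broad peaks are the DNase I hypersensitive peaks of 1500 bp or more on chromosomes 1 to 22 in 5 human B-lineage lines, 748 of 106904 listed peaks (0.70%). They were selected on width, the distance between a peak's first and last base (hg18), in each deposited peak list, so counts, widths and scores of broad peaks are given as a description with no test. The Hodgkin group held L1236, L428 and L591, all from Hodgkin lymphoma. The non-Hodgkin group held Reh, which came from pro-B lymphoblastic leukaemia, and the Burkitt lymphoma line Namalwa. All 5 lines had been taken at passage 7. Worthington DNase I was used at 6 U/ml on nuclei of L1236, L428 and Reh, whereas L591 and Namalwa nuclei received 12 U/ml. Each line gave 1 library and 1 list, so lines stood as the replicates of a group and the spread within a line is unknown.

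DNase I cuts DNA where nucleosomes are displaced or loosened, as at active promoters and enhancers. A single hypersensitive site usually spans little more than the place of a nucleosome or a few. Hodgkin lymphoma cells are of B-cell origin but express few of the genes typical of B cells. Wider open stretches are known from clusters of enhancers, locus control regions and CpG-rich promoters, and a listed width also moves with read depth and with the way a caller joins neighbouring sites. Depth is unknown here, since the lists hold no read counts, and the caller is not given in the sources used. Whether depth or calling contributed to the differences in breadth between lists was not tested. The coordinates are in hg18, and neither a gene annotation nor a genome of that build was used, so regions carry a position without gene or sequence and the lines' identity could not be checked at marker genes.

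The number of broad peaks differed widely between the lists. L1236 had 137 of 24971 peaks (0.549%, exact 95% interval 0.461 to 0.648), L428 71 of 22758 (0.312%, 0.244 to 0.393) and L591 351 of 26030 (1.35%, 1.21 to 1.50). Reh had 160 of 27502 (0.582%, 0.495 to 0.679) and Namalwa 29 of 5643 (0.514%, 0.344 to 0.737). L591 thus supplied the most, and its median peak over all widths was 450 bp, against 310 bp in L1236, 320 bp in L428, 320 bp in Reh and 290 bp in Namalwa. These Clopper-Pearson intervals, like the others below, cover counting error only. Just inside the threshold, at 1500 bp, lay 0 peaks of L1236, 3 of L428, 7 of L591, 6 of Reh and 0 of Namalwa. Just outside it, 1 bin of 10 bp narrower, lay 4 peaks of L1236, 0 of L428, 10 of L591, 6 of Reh and 0 of Namalwa.

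The median broad peak was not much wider than the threshold, while a few were very wide. It measured 1920 bp in L1236, 1820 bp in L428, 1710 bp in L591, 1790 bp in Reh and 2060 bp in Namalwa. L1236 had 7 peaks of 10000 bp or more, L428 had 1, L591 had 2, Reh had 1 and Namalwa had 2. The widest peak of every list lay on chromosome 16 and began at nearly the same base. It spanned 44943201 to 44973230 in L1236 (30030 bp), 44943261 to 44954410 in L428 (11150 bp) and 44943221 to 44967610 in L591 (24390 bp). In Reh it spanned 44943221 to 44967570 (24350 bp) and in Namalwa 44943231 to 44954410 (11180 bp).

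**Figure D1:**
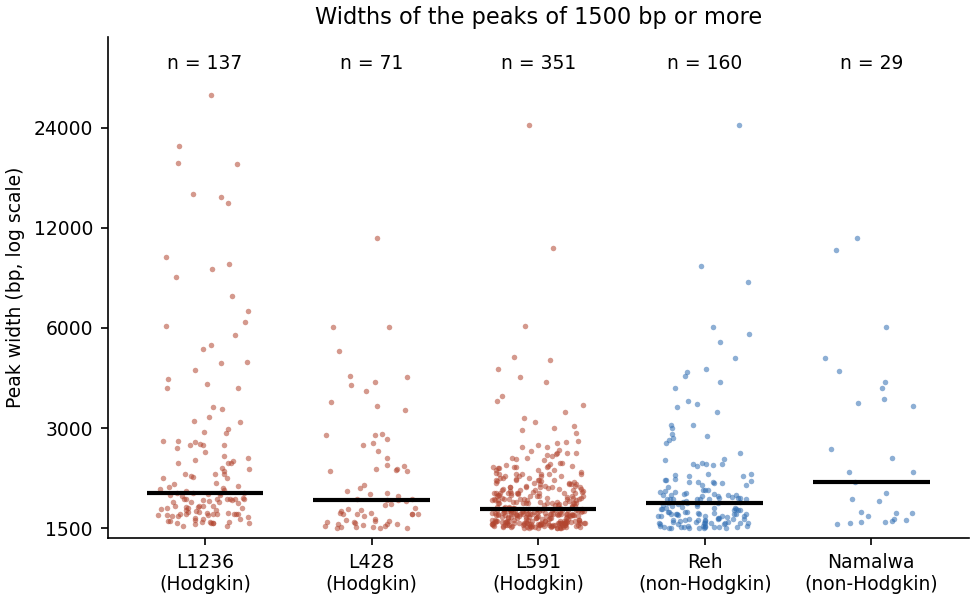
Width of each peak of 1500 bp or more (log scale, bp) in the 3 Hodgkin lists (red) and the 2 non-Hodgkin lists (blue), with 1 point per peak and a bar at the median. Medians lie between 1710 bp in L591 and 2060 bp in Namalwa, and single peaks reach 30030 bp in L1236.

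Broad peaks were strong as well as wide in most cases. The deposited score of a peak is the authors' peak area, which grows with width and has no stated scaling between lists, so score per bp is compared only with other peaks of the same list. The median broad peak had 42.0 score units per bp in L1236, 2.16 times the median over all L1236 peaks. L428 had a ratio of 2.91, L591 of 1.71, Reh of 2.36 and Namalwa of 6.68. A minority were wide and shallow, with a score per bp below the list's median, and these numbered 17 in L591, 1 in L1236 and 0 in the other lists. Broad peaks covered 4.84% of the listed bases of L1236, 2.02% of L428, 4.99% of L591, 3.31% of Reh and 4.55% of Namalwa. They held a far larger part of the summed score, 42.2%, 30.2%, 32.1%, 26.4% and 46.0% in the same order. Most of that part came from few places. The 18 places with a broad peak in every list held 85.6% (L1236) to 99.8% (Namalwa) of the score of broad peaks. These parts of the summed score therefore do not describe the typical broad peak, and values without those places were not computed.

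Nearly all broad peaks had a counterpart in another list. At least 1 bp was shared with a peak of any other list by 119 of 137 broad peaks in L1236 (86.9%, 80.0 to 92.0), against 54.5% of all L1236 peaks. The share was 71 of 71 in L428, against 77.2% of all its peaks, and 346 of 351 in L591 (98.6%, 96.7 to 99.5), against 72.3%. In Reh it was 158 of 160 (98.8%, 95.6 to 99.8), against 54.0%, and in Namalwa 29 of 29, against 99.4%. The count of 0 unshared peaks allows a share of up to 4.23% in L428 and 10.3% in Namalwa, taking 3 counts as the limit. L1236 was thus the list with the most broad peaks of its own, 18, followed by L591 with 5 and Reh with 2.

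Set against the narrower peaks of the same list, broad peaks were shared more often in 5 of 5 lines. L1236 broad peaks were ahead by 32.6 percentage points, L428 by 22.9, L591 by 26.7, Reh by 45.0 and Namalwa by 0.64, where 99.4% of narrower peaks were already shared. The mean difference of 25.5 points gave p = 0.063 in a two-sided exact sign-flip permutation test over the 5 lines, the smallest p that design allows. A wide interval meets other peaks more easily, so the size of the difference depends on what is compared. With the central 200 bp of every peak in place of the whole peak, the mean difference fell to 7.53 points (exact permutation p = 0.188). Namalwa then had the opposite sign, at 86.2% of broad and 93.8% of narrower peaks, while Reh kept a difference of 24.9 points. With the central 200 bp of a list's own peaks against whole peaks of the other lists, a setting chosen after seeing the data, the differences lay between 0.61 points in Namalwa and 40.7 in Reh.

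**Figure D2:**
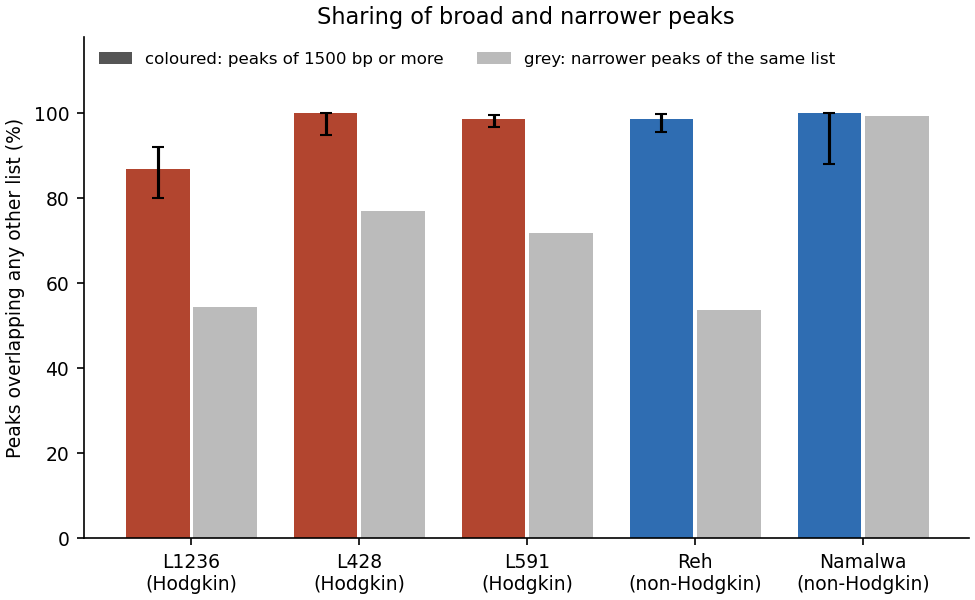
Percentage of peaks that share at least 1 bp with a peak of any other list, for broad peaks (coloured, with exact 95% intervals) and for narrower peaks of the same list (grey). Broad peaks are above the grey bar by 22.9 to 45.0 points in 4 lines and by 0.64 points in Namalwa.

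Broad peaks of L1236, L591 and Reh met any peak of another list much more often than a broad one. The gap was smaller for L428, and broad Namalwa peaks mostly met broad peaks. A broad counterpart is also a counterpart, so the second share cannot exceed the first. The second share is also limited by the few broad peaks of some lists, 71 in L428 and 29 in Namalwa. The gap is therefore a description and does not show that breadth is poorly shared. Each percentage of broad peaks meeting any peak is followed here by that of all peaks of the list. Among the broad L1236 peaks, 74.5% met an L428 peak (39.0%), 77.4% an L591 peak (44.8%), 68.6% a Reh peak (31.7%) and 55.5% a Namalwa peak (13.7%). Broad L428 peaks met L1236 at 87.3% (43.4%), L591 without exception (67.5%), Reh at 88.7% (44.4%) and Namalwa at 83.1% (18.3%). Broad Reh peaks met L1236 at 80.6% (28.8%), L428 at 81.3% (35.8%) and L591 at 83.1% (44.1%). In every one of these pairs the broad peaks were ahead of the list as a whole. A broad peak was met by 13.9% (in Namalwa) to 29.9% (in L591) of broad L1236 peaks. For broad L428 peaks this was 35.2% (in Namalwa) to 78.9% (in L591). Shares over all peaks are not given for these.

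Of the 351 broad L591 peaks, 94.3% met an L428 peak (55.2% of all L591 peaks did) but 15.1% met a broad one. For L1236 peaks as the counterpart the values were 90.0% (40.4% of all L591 peaks) and 16.8%, for Reh 85.8% (43.2%) and 21.9%, and for Namalwa 64.1% (16.4%) and 6.84%. The widest L428 counterpart of an L591 broad peak had a median width of 800 bp, and L428 peaks covered a median of 61.6% of the broad interval. Members were chosen for width in their own list, so a narrower counterpart elsewhere is a description and not a test. Of the 160 broad Reh peaks, 95.6% met a Namalwa peak (18.6% of all Reh peaks did), 15.6% met a broad Namalwa peak and 66.3% met at least 2 separate Namalwa peaks. All 29 broad Namalwa peaks met a peak of each other list, as did 65.3% of all Namalwa peaks for L1236, 76.0% for L428, 82.8% for L591 and 98.4% for Reh. The counterpart was itself broad for 28 in L1236, 25 in L428, 28 in L591 and 29 in Reh. The share of all peaks that met a broad peak, or at least 2 separate Namalwa peaks, is not given here. These values therefore do not show whether broad peaks differ in this from the list as a whole.

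A broad peak was often listed as several separate peaks elsewhere. Among shared broad peaks, 83 of 119 in L1236 (69.7%, against 8.13% of all its shared peaks) met at least 2 separate peaks of another list. The count was 46 of 71 in L428 (64.8%, against 6.59%), 285 of 346 in L591 (82.4%, against 14.2%), 129 of 158 in Reh (81.6%, against 10.8%) and 9 of 29 in Namalwa (31.0%, against 5.37%). Longer intervals have more room for several peaks, and the part this plays was not tested. The Hodgkin lines averaged 72.3% ± 9.06 (SD, n = 3) and the non-Hodgkin lines 56.3%, a difference of 16.0 points (two-sided exact permutation over 10 divisions, p = 0.6). At 6 U/ml the values were 67.3% in L1236 and L428 and 81.6% in Reh, and at 12 U/ml 82.4% in L591 and 31.0% in Namalwa, so the sign was not the same. Without Namalwa the difference was -4.06 points.

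**Figure D3:**
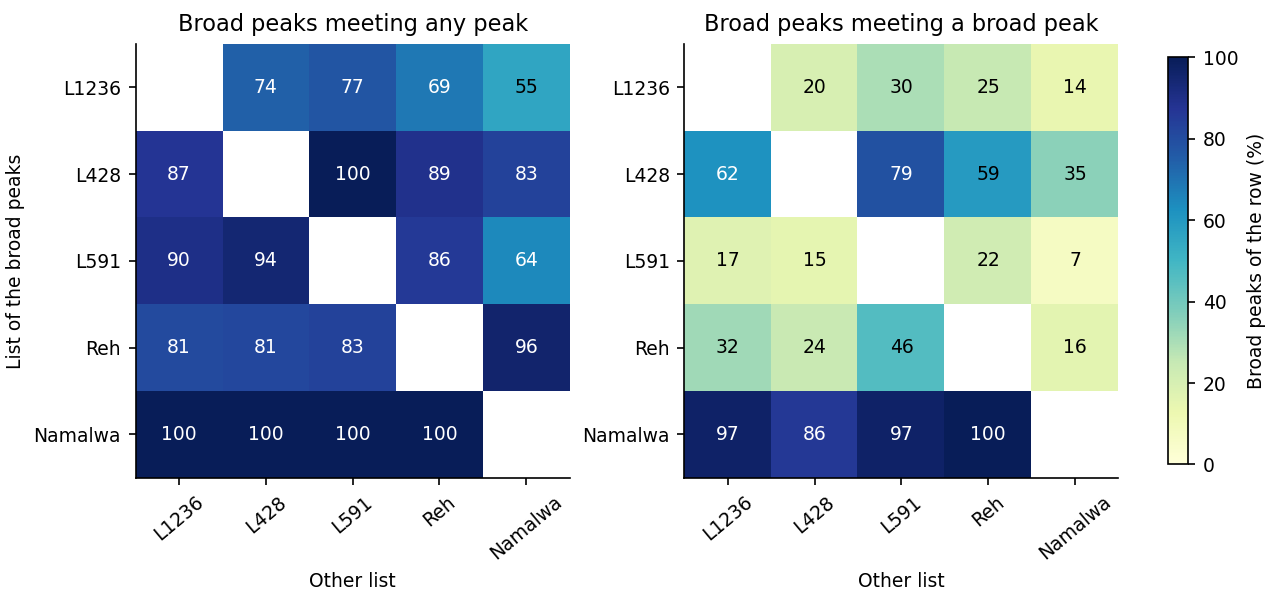
Percentage of the broad peaks of the list in each row that meet any peak (left) or a broad peak (right) of the list in each column, with the diagonal left blank. L591 broad peaks meet an L428 peak at 94.3% but a broad L428 peak at 15.1%, whereas Namalwa broad peaks meet a broad peak of the other lists at 86.2% or more.

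Overlapping broad peaks of the 5 lists were joined into 517 regions, most of which were broad in 1 list only. A broad peak was present in 1 line alone at 430 regions (83.2%), in 2 lines at 49, in 3 at 15, in 4 at 5 and in all 5 at 18. The fixed width gave 351 broad peaks in L591 but 71 in L428 and 29 in Namalwa. Many regions could therefore not be broad in several lists, and the 83.2% is a description. L591 alone was broad at 249 regions, L1236 alone at 92, Reh alone at 77, L428 alone at 12 and Namalwa alone at 0. Presence of a peak of any width was far more widespread. All 5 lists had a peak at 273 of the 517 regions (52.8%), against 5.16% of the 58006 regions made in the same way from all peaks. Only 25 regions (4.84%) had a peak in 1 list, against 62.9%. Broad regions measure at least 1500 bp, whereas the median peak of a list measured 290 bp (Namalwa) to 450 bp (L591). A wide region meets other peaks more easily, and the part of width in these contrasts was not tested. Of the 249 regions that were broad in L591 alone, 125 had a peak in every list. The most frequent partner for shared breadth was Reh, with 27 regions broad in L591 and Reh and in no other line.

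**Figure D4:**
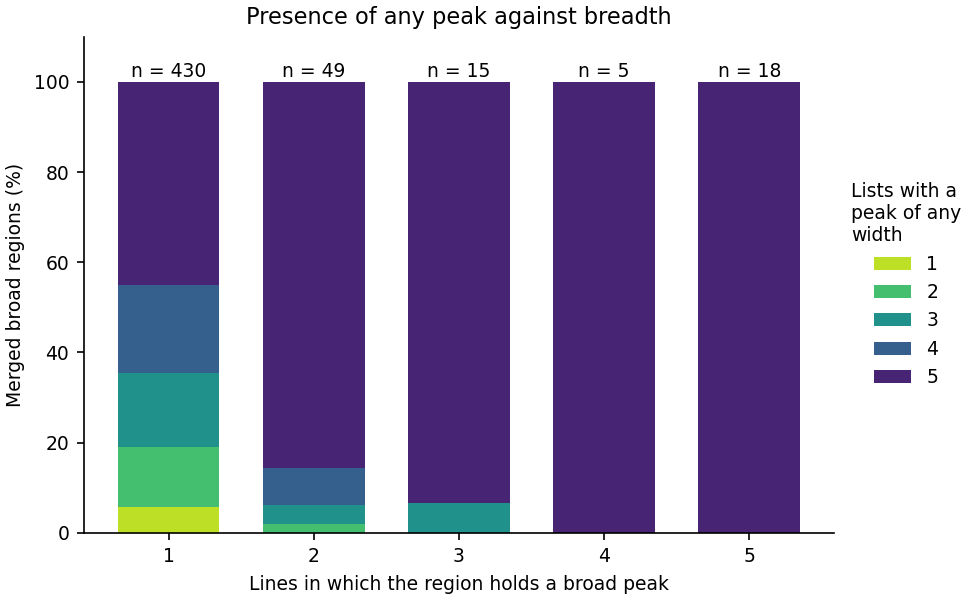
Merged broad regions by the number of lines in which they hold a broad peak (horizontal axis), with colours for the number of lists that have a peak of any width there (percent of regions, n above each bar). Regions broad in 5 lines have a peak in every list by definition, and those broad in 4 lines lack freedom in all but 1 list. The 5 regions broad in 4 lines also have a peak in every list, and of the 430 regions broad in 1 line 194 do.

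The 18 regions broad in every list had larger widths and scores than the others, which is a description since width chose them. Their median merged width was 5880 bp, against 1695 bp for regions broad in 1 line. They took in 19 of the 137 broad L1236 peaks, 32 of 71 from L428 and 34 of 351 from L591, and 32 of 160 from Reh and 27 of 29 from Namalwa. Inside them the median broad peak had 473 score units per bp in L1236, against 38.3 outside. In L428 the values were 62.2 inside and 16.8 outside, in L591 62.1 and 15.6, in Reh 68.7 and 12.3 and in Namalwa 49.3 and 8.57. They held between 85.6% (L1236) and 99.8% (Namalwa) of the score of all broad peaks of a list.

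Many of these regions lay beside long stretches without peaks. Of the 18, 11 lay within 1 Mb of the longest stretch of their chromosome without a peak in any list, as did 37 of the 430 regions broad in 1 line (8.60%). That stretch ran from 35143101 to 44943200 on chromosome 16, and 3 of the 18 regions lay just after it, at 44943201 to 44973230, 44974071 to 44988340 and 44988431 to 44993160. On chromosome 8 a region ended at the last base before the stretch (43939701 to 43958060) and another began at the first base after it (46958021 to 46976830). On chromosome 2 the region at 91668861 to 91690000 ended where the stretch began. The L1236 list gave 1 peak of 21140 bp there, while L428 gave 13 peaks, L591 12, Reh 14 and Namalwa 16, covering 84.3% to 90.7% of the same interval. On chromosome 10, 15120 bp at 41702281 to 41717400 were again 1 peak in L1236 and 8 to 11 peaks in the other lists. The regions on chromosome 7 at 61604481 to 61611950 and chromosome 6 at 58881471 to 58888220 complete the leading ones near such a stretch. On chromosomes 13, 14, 15, 21 and 22 the stretch is the one before the first listed peak, and on chromosome 18 it ran from 23471741 to 26895820. On chromosome 11 it ran from 96784471 to 100126350, on chromosome 12 from 84086881 to 86953200 and on chromosome 17 from 48538851 to 49986810. Whether the longest stretch is the centromere gap was not tested, and on chromosomes 11, 12, 17 and 18 it may not be, so near and elsewhere refer to the longest stretch only.

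The other 7 of the 18 regions, 1 of them on chromosome 11 and 2 on chromosome 18, were not within 1 Mb of the longest stretch, and the strongest of all was among them. Chromosome 1 from 554211 to 560270 was a single peak of 6040 or 6060 bp in every list and had the highest score per bp of each list among broad peaks. Its score per bp was 14414 for L1236, 5432 for L428, 8567 for L591, 1951 for Reh and 1450 for Namalwa, or between 885 times (L591) and 204 times (Namalwa) the list's median peak. The mitochondrial peaks of the same lists had 32345, 22625, 29192, 6577 and 4847 units per bp. The region on chromosome 1 thus stood at 44.6% of the mitochondrial value for L1236, 24.0% for L428, 29.3% for L591, 29.7% for Reh and 29.9% for Namalwa. Chromosome 5 at 79981961 to 79984010 stood at 3.78% to 8.43%, chromosome 11 at 10485891 to 10488450 at 3.21% to 7.95% and chromosome 5 at 134286821 to 134292160 at 3.28% to 12.2%. In each of these 4 regions the lines fell in the same order as their mitochondrial score per bp, as they did in 6 of the 18 regions. Both orders use raw scores with no stated scaling between lists, so the scale of a list enters them. The other 2 of the 6 were the regions at 91668861 on chromosome 2 and at 16769261 on chromosome 18. In the 12 regions with another order, 10 of them near a peak-free stretch, the percentage of the mitochondrial value varied 4.27-fold to 9.64-fold between lines. Among the 6 regions with the same order it varied 1.86-fold on chromosome 1, 2.48-fold on chromosome 11 and 3.57-fold on chromosome 2. On chromosome 5 it varied 2.23-fold at 79981961 and 3.71-fold at 134286821. These values were below the 4.27-fold of the other order, whereas chromosome 18 at 16769261 had 17.7-fold. The ratio to the mitochondrial value was thus not constant in any of the 6. What part reads of mitochondrial origin play was not tested. The region on chromosome 18 at 16769261 to 16774440 was led by 1 list. Its score per bp was 26.3 times the list's median peak in L1236 and 2.40 to 4.05 times in the others. Another on chromosome 18, at 95971 to 101670, stood at 8.84 times in Reh and 8.21 times in L1236. It was lowest in L428, at 3.90 times.

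**Figure D5:**
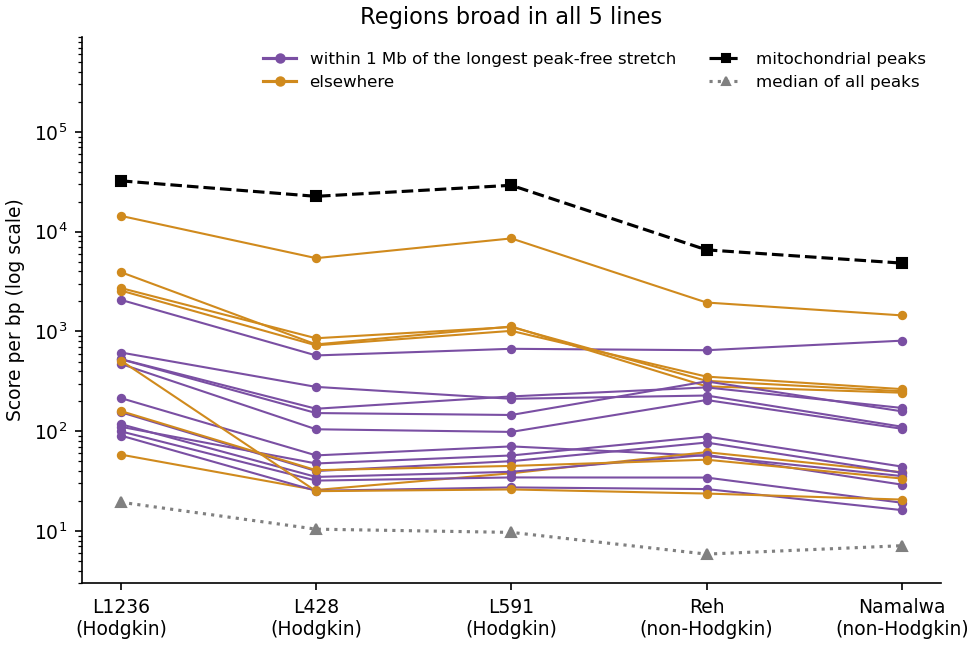
Score per bp (log scale) in each list of the 18 regions broad in all 5 lines, within 1 Mb of the longest peak-free stretch (purple) or elsewhere (orange), with the mitochondrial peaks (black squares) and the median of all peaks (grey triangles). Of the 7 orange lines, the 4 highest in L1236 have the same order of lists as the black line, and the region on chromosome 1 is at 24.0% to 44.6% of it. Scores have no stated scaling between lists.

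Over single lists, the share of broad peaks near a peak-free stretch was 33.6% in L1236 (46 of 137, against 6.77% of all its peaks), 36.6% in L428 (26 of 71, against 2.11%) and 9.40% in L591 (33 of 351, against 1.83%). It was 23.8% in Reh (38 of 160, against 3.67%) and 72.4% in Namalwa (21 of 29, against 6.22%). The Hodgkin mean was 26.5% ± 14.9 (SD, n = 3) and the non-Hodgkin mean 48.1%, and 5 of 10 divisions of the lines differed as much (two-sided exact permutation p = 0.5). The sign was not the same at the 2 DNase I concentrations, with 35.1% in L1236 and L428 against 23.8% in Reh at 6 U/ml and 9.40% in L591 against 72.4% in Namalwa at 12 U/ml. Without Namalwa the difference was 2.78 points in place of -21.5.

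Broad peaks also lay close to each other. Another broad peak of the same list lay within 20 kb of 46 of 137 broad peaks in L1236 (33.6%), 25 of 71 in L428 (35.2%) and 56 of 351 in L591 (16.0%). The numbers were 42 of 160 in Reh (26.3%) and 14 of 29 in Namalwa (48.3%). For a peak of any width a broad neighbour was that near for 3.81% of L1236, 1.36% of L428, 3.32% of L591, 3.03% of Reh and 2.91% of Namalwa peaks. The Hodgkin mean was 28.2% ± 10.7 (SD, n = 3) and the non-Hodgkin mean 37.3%, a difference of -9.02 points that was within the spread between lines (two-sided exact permutation p = 0.6). At 6 U/ml the values were 34.4% in the Hodgkin lines and 26.3% in Reh, and at 12 U/ml 16.0% in L591 and 48.3% in Namalwa. The difference was 2.0 points without Namalwa and 6.44 points without the peaks near a peak-free stretch.

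The 1 Mb windows with the most merged broad regions lay both near peak-free stretches and away from them. Chromosome 10 from 41 to 42 Mb held 12, all within 1 Mb of the peak-free stretch of that chromosome, and 10 of them were broad in L1236 alone. Chromosome 2 from 90 to 91 Mb held 6, again all near such a stretch. Chromosome 6 from 26 to 27 Mb held 10 and the window after it, from 27 to 28 Mb, held 6, and none of these was near a peak-free stretch. L591 had a broad peak at all 16, L1236 at 1 and Reh at 1. The other lists were not short of peaks there. In the first of these windows L1236 had 63 peaks of any width, L428 54, L591 71, Reh 69 and Namalwa 15. Why breadth differed there was not tested. A further 6 windows held 5 regions each. They began at 16 Mb on chromosome 1, at 9 Mb on chromosome 2 (all broad in L591 alone), at 48 Mb and 49 Mb on chromosome 4, at 138 Mb on chromosome 6 and at 55 Mb on chromosome 12.

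The window at 138 Mb on chromosome 6 was the one of these where L428 led, with 4 broad peaks, against 2 in L591 and 0 in L1236, Reh and Namalwa. L428 also had 170 peaks of any width there, against 89 in L591, 23 in L1236, 5 in Reh and 1 in Namalwa. At 55 Mb on chromosome 12, L1236 had 4 broad peaks and L591 1.

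Chromosomes 2 and 10 held more of the broad peaks than of all peaks in every line, and others did so in some lines only. Chromosome 10 held 10.2% of broad L1236 peaks (3.46% of all its peaks), 9.86% in L428 (4.21%) and 5.70% in L591 (4.57%). It held 5.6% in Reh (3.6%) and 13.8% in Namalwa (3.03%). Chromosome 2 held 64 broad L591 peaks, 18.2% of them, against 10.5% of all L591 peaks, and 9.86% in L428, against 9.55%. In Reh chromosome 1 held 32 of 160, against 13.8% of all peaks. In Namalwa chromosome 16 held 8 of the 29, or 27.6%, against 5.14%. That chromosome held 9.86% in L428 (4.10%), 7.5% in Reh (4.86%), 3.70% in L591 (3.68%) and 2.92% in L1236 (3.48%). In L428 no chromosome held more than 8 broad peaks, the number on chromosome 6.

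A peak in L1236, L428 and L591 but in neither Reh nor Namalwa was found at 43 of the 517 regions (8.32%, Hodgkin-only regions), against 4.34% of the regions made from all peaks. None lay near a peak-free stretch. Chromosome 2 held 13 of the 43, a larger share than its 82 of all 517 regions. L591 was broad at 26 of the 43, L1236 at 16 and L428 at 3, so that in 42 of them breadth was again found in 1 list. The median score percentile within the list was 91.9 for L1236, 83.1 for L428 and 95.8 for L591. Among the 10 ways to choose 3 lines this count was the highest, with 11 next for L428, L591 and Reh (one-sided exact permutation p = 0.1, the smallest this design allows). A group can only gather regions that are broad in its own lines, and the 3 Hodgkin lists supplied 559 of the 748 broad peaks. No group with Namalwa, whose list held 5643 peaks, had more than 5 regions. List length and the number of broad peaks enter this rank, so the test cannot decide on a Hodgkin trait. The count was 22 without L591 and 109 without Reh.

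The leading region of this class was chromosome 2 from 38117881 to 38119680, the only one of the 43 that was broad in all 3 Hodgkin lines. Its peak measured 1730 bp in L1236, 1510 bp in L428 and 1800 bp in L591, at score percentiles 99.3, 97.2 and 99.4, with no peak in Reh or Namalwa. Next came chromosome 2 from 65399651 to 65401440, a peak of 1790 bp in L591, 880 bp in L1236 and 3 separate peaks in L428. Chromosome 16 from 11183341 to 11185300 was 1 peak of 1960 bp in L591, 3 peaks in L1236 and 2 in L428. Chromosome 9 from 1868591 to 1870880 was 2290 bp wide in L591, and its widest peak was 1260 bp in L428 and 500 bp in L1236. Chromosome 6 from 138190341 to 138192030 was broadest in L428, at 1690 bp, with 1290 bp in L591 and 860 bp in L1236.

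Regions with a peak in Reh and Namalwa and in no Hodgkin line numbered 16 (3.09%, against 1.05% of regions made from all peaks), 1 of them near a peak-free stretch. All 16 were broad in Reh and none in Namalwa, where 11 were listed as 2 or more peaks. The leading ones were chromosome 4 from 40691 to 42520, with 1830 bp in Reh and a widest peak of 1300 bp in Namalwa, and chromosome 15 from 19248111 to 19250450, with 2340 bp in Reh and 1030 bp in Namalwa. A second region on chromosome 4, from 42701 to 45030, was 1 peak of 2330 bp in Reh and 2 peaks in Namalwa. Chromosome 8 from 145465031 to 145466730 and chromosome 16 from 84343161 to 84344810 followed, at 1700 bp and 1650 bp in Reh.

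Regions without a peak in any other list numbered 18 in L1236, 5 in L591 and 2 in Reh. The leading ones of L1236 were chromosome 2 from 68846721 to 68848950, at 2230 bp and score percentile 99.3, and chromosome 10 from 41689891 to 41692020, at 2130 bp and 99.3. The region on chromosome 10 lay within 1 Mb of the peak-free stretch. Those of L591 were chromosome 20 from 58207821 to 58209340, at percentile 96.9, and chromosome 11 from 113983661 to 113985670, at 93.9. Those of Reh were chromosome 1 from 159760191 to 159762140, at 98.0, and chromosome 17 from 33359021 to 33361110, at 97.6. The L1236 list is also the one without the qcTrimmed mark, so line and list preparation cannot be told apart for it.

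Shared breadth was also compared within and across the groups. The share of merged regions broad in both lines, out of those broad in either, was 0.166 for L1236 with L428, 0.0937 for L1236 with L591 and 0.116 for L428 with L591. It was 0.141 for Reh with Namalwa. Across the groups the lowest value was 0.0572 for L591 with Namalwa, and 0.321 for L428 with Namalwa was the highest of the 10 pairs. The mean of pairs within a group minus that of pairs across groups was -0.0309 (one-sided exact permutation p = 0.8). The share of broad peaks with any counterpart was likewise 95.1% ± 7.21 (SD, n = 3) in the Hodgkin lines and 99.4% in the non-Hodgkin lines (two-sided exact permutation p = 0.7), with 93.4% against 98.8% at 6 U/ml and 98.6% against 100% at 12 U/ml. Without Namalwa this difference was 6.15 points in place of -4.23. Over the 7 tests made, the smallest Benjamini-Hochberg value was 0.35, so none passed at 0.05.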

How the data were processed

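DNase-seq peak lists of 5 cell lines were used, 1 per line. Per the submitters' processing notes, reads had been mapped with Bowtie 1.00 to hg18. Per the file headers and columns, reads had been extended to 146 bp and binned at 10 bp, and 4 of the 5 lists are marked qcTrimmed. Each peak's deposited score is its area as the authors computed it. All scores are whole numbers divisible by 8, and no scaling to depth is stated. Positions are 1-based. The sources used here give no peak caller, threshold or read depth.

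Broad peaks (1500 bp or more) were compared on chromosomes 1 to 22. Peaks overlapped from 1 bp. Overlapping broad peaks of all lists were joined into regions, and a line was present if any of its peaks met the region. Groups came from the lymphoma type in the labels and were compared by exact permutation over the 10 divisions of the lines into 3 and 2, and broad with narrower peaks by 32 sign flips. These p-values measure the spread between single libraries of different lines. Named were the widest and the strongest broad peak per line, the 10 regions broad in the most lines (ties by width), the 5 leading regions of each group's own class and the 2 leading regions of each line alone, ranked by the lowest score percentile over the lists with a peak there, and the fullest windows of 1 Mb. The remaining regions broad in all lines that the text gives were added after their values were seen. The members, lists and rules were chosen with earlier results of these data known. Alternatives covered the width threshold (1000 bp, 2000 bp or the widest 2%), chromosome X, overlap rule, joining of peaks, flank and neighbour distances, and each line left out.

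The counting was checked on simulated lists of 2200 planted sites of all classes and widths. Of the Hodgkin-only broad regions among them, 100% were found. The planted sites lay far apart and had the same start in every list, unlike many broad peaks here. The check therefore covers the counting steps only. Python 3.11.15, numpy 2.4.6, pandas 2.3.3, scipy 1.17.1 and matplotlib 3.10.9 were used.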

Additional observations from a re-analysis of the deposited data

Results flagged for a closer look

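Broad peaks also occurred on chromosome X, which entered the comparisons only as an alternative, and in mitochondrial DNA, which entered none between groups. Chromosome X held 3 peaks of 1500 bp or more in L1236, 7 in L428, 20 in L591 and 6 in Reh, and 0 of 117 in Namalwa. Mitochondrial DNA gave 1 peak of 16320 to 16350 bp in every list, beside a short second one. Their score units per bp came to 32345 for L1236, 22625 for L428, 29192 for L591, 6577 for Reh and 4847 for Namalwa.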

How the results depend on the processing

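Of 91 values recomputed, 78 kept their direction and their side of 0.05, or their count within 1.5 times. With 5 lines the group tests cannot reach 0.05, so their side of it says nothing of stability. Without Namalwa the Hodgkin minus non-Hodgkin difference turned round for the share of broad peaks with a counterpart (6.15 points), near a peak-free stretch (2.78), with a broad neighbour (2.0) and split elsewhere (-4.06). The neighbour difference was 6.44 without peaks near a peak-free stretch. The within-group minus between-group index was 0.0200 with the widest 2% of each list. The count of Hodgkin-only broad regions moved with the definition of a broad peak, with 305 from 1000 bp, 10 from 2000 bp, 154 with the widest 2% and 117 with peaks up to 200 bp apart joined. That joining gave a share of broad peaks of 1.82%, against 0.70% as listed. Leaving out a line gave counts between 22 (without L591) and 109 (without Reh). It moved the counterpart difference between -10.9 and 6.15 points, the peak-free one between -39.5 and 2.78, the neighbour one between -20.0 and 2.0 and the split one between -4.06 and 36.0. All 26 named regions had peaks in as many lists with 50% overlap. Broad and narrower peaks were paired within each line. The Hodgkin and non-Hodgkin groups could not be paired, since they hold different lines with 1 library each and the labels give no replicate numbers. With 5 libraries of unknown depth, the absence of a peak from a list, above all from the short Namalwa list, is not absence of accessibility.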

Other observations

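Broad peaks lay among more peaks of their own list than narrower ones did, a measure added after seeing the data. Within 10 kb of a broad peak the mean number of further peaks was 6.51 in L1236, against 2.79 around narrower peaks. It was 6.11 against 1.40 in L428, 2.34 against 1.20 in L591, 5.41 against 2.39 in Reh and 8.66 against 1.30 in Namalwa. Broad L591 peaks stood alone within that distance at 33.0%, the highest share of the 5 lists, against 44.5% of its narrower peaks.

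Joining peaks of a list that lay up to 200 bp apart raised the number of broad peaks. L1236 then had 331, L428 147, L591 710, Reh 502 and Namalwa 52. The rise was 2.42-fold in L1236, 3.14-fold in Reh and 1.79-fold in Namalwa. L591 still had the most.

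Broad peaks within 500 kb of a chromosome end, taken as its first base or the last base listed, were few. L1236 had 4, L428 4, L591 8, Reh 4 and Namalwa 2. These were 2.92%, 5.63%, 2.28%, 2.50% and 6.90% of broad peaks, against 1.33%, 1.44%, 1.42%, 2.12% and 2.14% of narrower ones in the same order.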
